A study of Mus musculus with 18 samples.

Results

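The 10 genes described here belong to the transforming growth factor beta (TGF-beta) and activin pathways and were followed through chemically induced colitis and colorectal tumour formation in mice. They are Tgfb1, Tgfb2, Tgfb3, Inhba, Inhbb, Ltbp1, Fst, Bambi, Smad7 and Tgfbi, chosen by symbol among the probe sets that the array annotation assigns to exactly 1 gene. They are measured by 23 of the 45101 probe sets of the Affymetrix mouse expression array, and all 10 were among the 12877 genes tested.

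All animals were male ICR mice aged 6 weeks when treatment began. The treated groups received 10 mg/kg of the carcinogen azoxymethane (AOM) once into the peritoneum, and then the colitis-inducing polymer dextran sulfate sodium (DSS) in their drinking water. Colorectal tissue was taken on day 14 (inflamed mucosa, after 1 DSS cycle at 2%) and on day 28 (low grade dysplasia, after the same cycle). Further tissue came from day 42 (high grade dysplasia, after a second cycle at 1.5%), and from day 56 (high grade dysplasia with active inflammation, after another cycle at 1.5%). Carcinomas were taken on day 140, after the same 3 cycles. Normal mucosa came from mice given saline and plain water and was taken on day 14 only, so the later stages have no control of their own age. No group received AOM alone or DSS alone, so their parts cannot be told apart. Each of the 6 groups held 3 arrays labelled as biological replicates, 18 in all. The labels do not say whether RNA of several animals was pooled. Values are the deposited probe set signals, and tests used log2(signal + 16), on which scale the change of dim genes is understated.

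The 3 TGF-beta ligands are secreted as latent complexes that latent TGF-beta binding proteins such as Ltbp1 tether to the matrix. Activins are dimers of the Inhba and Inhbb chains and are held in check by the binding protein follistatin (Fst). Both ligand classes act through paired serine/threonine kinase receptors that phosphorylate Smad proteins, a step opposed by the decoy receptor Bambi and the inhibitory Smad7. In the gut, TGF-beta restrains epithelial growth, shapes wound repair and dampens inflammation.

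Promoter stretches are shown for 3 of the genes that rose at 2 weeks, both activin chains and the latency protein Ltbp1. RefSeq promoters (GRCm38.p6) were matched for 6 of the 10 genes, and each stretch is the 250 bases before an annotated start site. The Inhba stretch lies at chr13:16011601-16011850 on the plus strand and the Inhbb stretch at chr1:119422249-119422498 on the minus strand. The Ltbp1 stretch, before the more upstream of 2 annotated starts, lies at chr17:75005279-75005528 on the plus strand. Capitals mark the letters TATAAA, 91 bases before the start in Inhba, and TGACGTCA, 73 bases before the start in Ltbp1.
Inhba: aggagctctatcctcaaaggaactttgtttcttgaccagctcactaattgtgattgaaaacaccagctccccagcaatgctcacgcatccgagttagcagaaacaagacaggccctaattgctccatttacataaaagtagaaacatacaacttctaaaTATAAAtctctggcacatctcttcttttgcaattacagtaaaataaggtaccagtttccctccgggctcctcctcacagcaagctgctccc
Inhbb: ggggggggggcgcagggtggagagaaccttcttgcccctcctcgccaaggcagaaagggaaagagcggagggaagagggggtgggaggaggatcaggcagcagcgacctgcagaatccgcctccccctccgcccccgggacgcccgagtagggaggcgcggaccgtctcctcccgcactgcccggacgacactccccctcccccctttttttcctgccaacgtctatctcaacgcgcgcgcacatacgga
Ltbp1: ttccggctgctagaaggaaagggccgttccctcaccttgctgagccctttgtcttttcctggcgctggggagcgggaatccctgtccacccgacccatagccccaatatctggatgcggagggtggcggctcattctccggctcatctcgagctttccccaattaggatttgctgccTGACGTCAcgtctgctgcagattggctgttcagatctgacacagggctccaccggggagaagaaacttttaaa
The Inhbb stretch held 68% G and C with 21 CG pairs and the Inhba stretch 43.2% with 3 CG pairs, against medians of 52.4% and 6 over 32851 promoters of the same length. Letters were searched on both strands. TATAAA was present in 12.4% of those promoters and TGACGTCA, the cyclic AMP response element, in 1.55%; these 2 were added after a search for 3 others. Of these, the Smad letters GTCTAGAC (0.167% of all promoters) and the AP-1 letters TGANTCA (6.75%) were in none of the 7 promoters matched. The short Smad letters CAGACA (17.1%) were in the promoter of Tgfb2 and in the second promoter of Ltbp1. TATAAA was also in the Tgfb2 promoter, 31 bases before the start. Tgfb1 and Tgfbi rose at 2 weeks as well, and their matched promoters, not shown, held none of the letters searched.

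At 2 weeks, 7 of the 10 genes were higher in inflamed than in normal mucosa: the activin chains Inhba and Inhbb, their inhibitor Fst, the ligands Tgfb1 and Tgfb3, the latency protein Ltbp1 and the target gene Tgfbi. Smad7, the feedback inhibitor, was lower, and Tgfb2 and Bambi did not pass the test. The test was limma with Benjamini-Hochberg adjustment over all genes and a threshold of 0.05. Over all genes, 22.6% were called higher and 24.3% lower in this comparison. The median log2 change was 1.30 over the 10 genes and 0.01 over all genes. The 10 genes were chosen with earlier results of these data known, so such counts and medians are a description. In the later stages 1 gene passed against normal mucosa, Inhbb in high grade dysplasia at 8 weeks. In a moderated F test over the 6 groups 8 of the 10 genes differed, against 45.3% of all genes, and the adjusted p was 0.373 for Tgfb2 and 0.198 for Bambi.

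**Figure D1:**
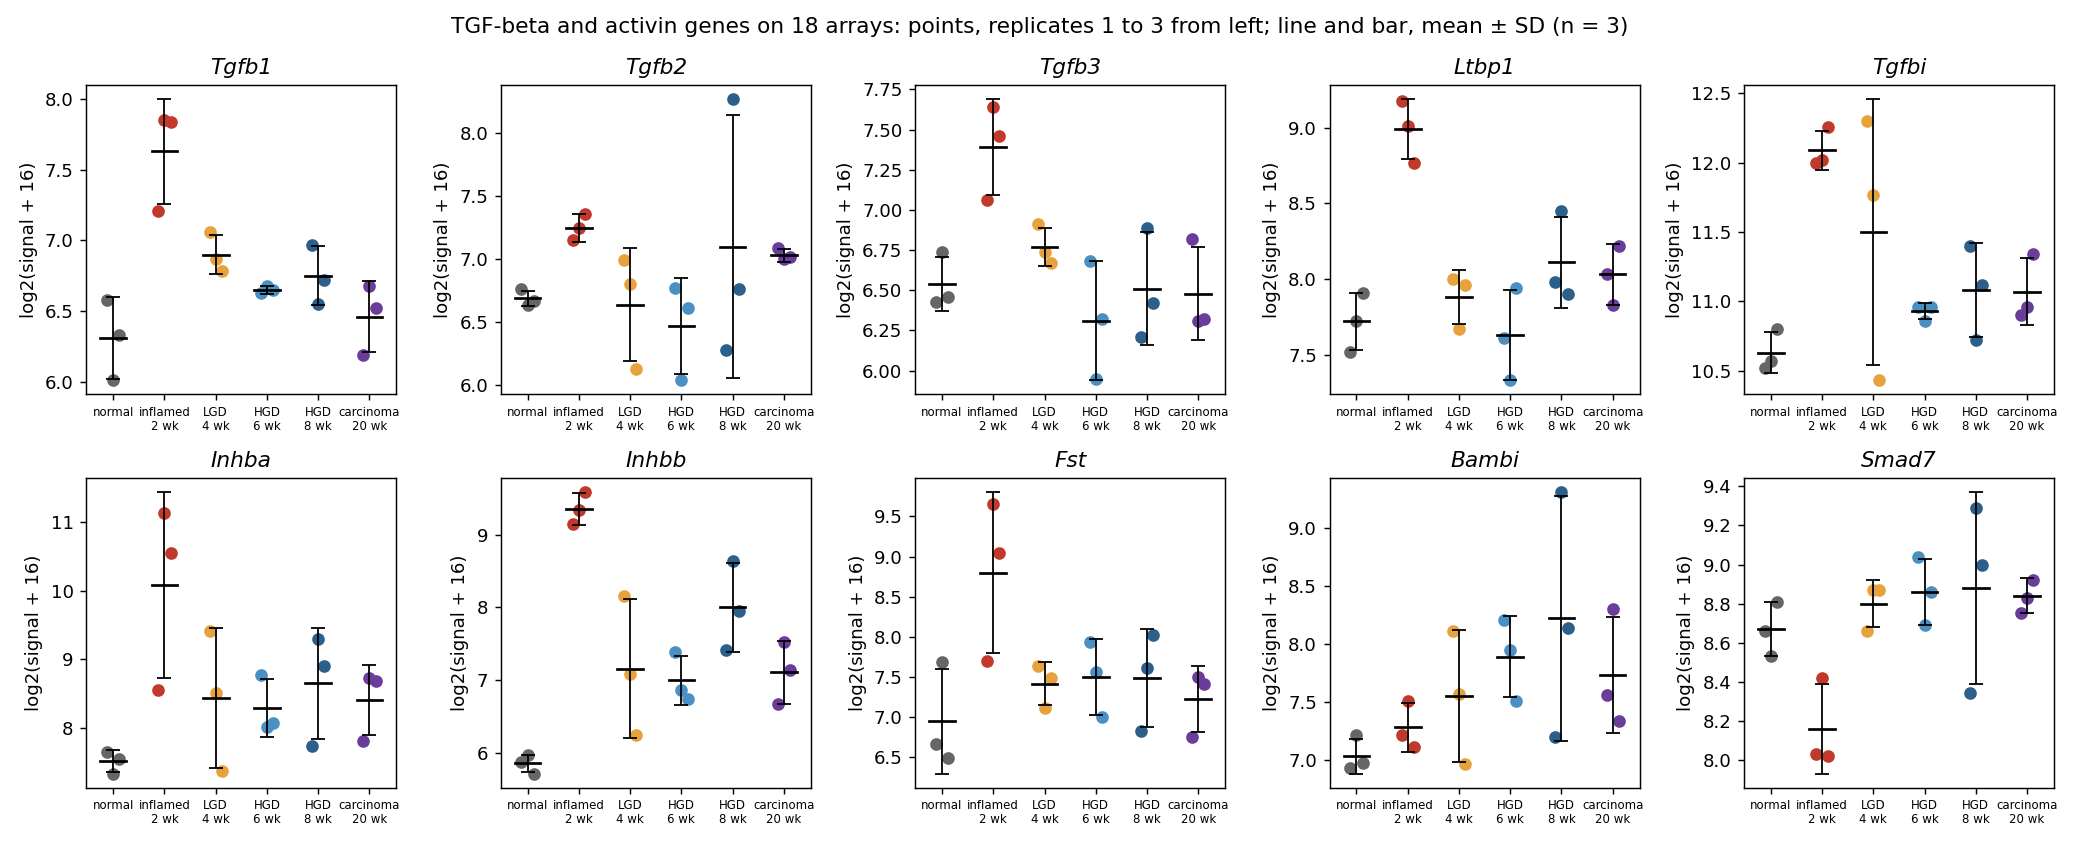
Each panel plots log2(signal + 16) of 1 gene on the 18 arrays by group, with replicates 1 to 3 from left to right, the group mean as a line and the SD as a bar (n = 3); each vertical axis has its own range. The inflamed arrays lie above all normal arrays for Tgfb1, Tgfb2, Tgfb3, Ltbp1, Tgfbi, Inhba, Inhbb and Fst and below them for Smad7. The share of all genes whose groups do not overlap was not counted, for this or any other comparison.

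Tgfb1 encodes the most widely expressed TGF-beta ligand. Its signals were 80.0, 48.6 and 64.7 in normal mucosa and 132, 215 and 213 in inflamed mucosa. They were 117, 101 and 93.7 in low grade dysplasia and 82.9, 86.5 and 84.3 in high grade dysplasia at 6 weeks. At 8 weeks they were 109, 77.8 and 89.4, and in carcinoma 56.9, 86.4 and 75.8. The inflamed arrays lay above all others, the low grade arrays lay above the normal ones without overlap, and the carcinoma arrays overlapped the normal range. The log2 change in inflamed mucosa was 1.32 ± 0.19 (SE, 3 against 3 arrays), 2.50-fold, with a limma adjusted p of 6.00e-05. In low grade dysplasia it was 0.59 ± 0.19, which did not pass (limma adjusted p = 0.0734). The second probe set gave a log2 difference of 0.39 in inflamed mucosa.

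Tgfb3, the ligand best known from fusion of the palate, gave 70.3, 90.7 and 72.1 in normal and 117, 184 and 160 in inflamed mucosa. In low grade dysplasia it gave 104, 90.8 and 85.8, and in high grade dysplasia at 6 weeks 86.7, 45.6 and 63.7. The 8-week arrays gave 57.8, 103 and 69.6 and the carcinomas 96.6, 63.4 and 63.9. Every inflamed array exceeded every other array, while each of the 4 later groups overlapped normal mucosa. The log2 change in inflamed mucosa was 0.84 ± 0.22, 1.79-fold (limma adjusted p = 0.00521).

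Tgfb2 gave 92.4, 83.6 and 85.5 in normal and 126, 136 and 148 in inflamed mucosa on its brightest probe set. Low grade dysplasia gave 111, 95.7 and 54.2 and high grade dysplasia at 6 weeks 92.9, 49.8 and 82.0. At 8 weeks the arrays read 61.5, 293 and 92.7, and in carcinoma 120, 112 and 113. The inflamed and carcinoma arrays lay above the normal range without overlap, but replicate 2 at 8 weeks stood above every other array, and the spread shared by the groups was wide. The log2 change in inflamed mucosa was 0.56 ± 0.37 (limma adjusted p = 0.231), and at 8 weeks it was 0.42 ± 0.37 with replicate 2 and -0.17 without it. With only the 6 arrays of the comparison fitted, Tgfb2 passed in inflamed mucosa at the same 0.56 (limma adjusted p = 0.00394), where 48.3% of all genes passed. All 4 probe sets were high on that array, and their inflamed differences ran from 0.27 to 0.63 on the log2 scale; 2 of them failed the filter on dim signals.

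Inhbb, the activin beta B chain, gave 43.0, 46.6 and 36.8 in normal and 550, 632 and 747 in inflamed mucosa. The low grade arrays read 268, 120 and 59.9 and high grade dysplasia at 6 weeks 152, 99.9 and 91.4. High grade arrays at 8 weeks read 156, 382 and 232 and the carcinomas 86.0, 169 and 125. All 15 arrays of treated mice lay above the 3 normal arrays, and the inflamed arrays lay above all others. The rise in inflamed mucosa was 3.50 ± 0.39 on the log2 scale, 11.3-fold (limma adjusted p = 1.08e-05). On the probe sets that represent the genes it was the largest of the 10, but the rise itself helped to select this probe set, as described below. At 8 weeks it was 2.15 ± 0.39, 4.43-fold (limma adjusted p = 0.00762). The other stages read 1.30 in low grade dysplasia, 1.14 at 6 weeks and 1.26 in carcinoma, each ± 0.39, and did not pass (limma adjusted p = 0.0637, 0.139 and 0.122). By group mean the order was inflamed mucosa (9.35 ± 0.22, SD, n = 3), high grade at 8 weeks (8.00 ± 0.61), low grade (7.16 ± 0.95), carcinoma (7.11 ± 0.43), high grade at 6 weeks (7.00 ± 0.34) and normal mucosa (5.86 ± 0.12). The low grade, carcinoma and 6-week means lay within 1 SD of each other.

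The 2 probe sets of Inhbb disagreed. The one tested was chosen for its higher mean over all arrays, 7.41 against 6.33 on the log2 scale. Its high signals in treated mice made that mean, so size and rank of the rise are partly built in. On all normal arrays it was the dimmer of the pair. There it also lay below the median signal of 56.6 used by the filter, which it passed through arrays of treated mice. The second probe set gave 54.6, 56.9 and 68.3 in normal and 73.8, 64.6 and 76.1 in inflamed mucosa, a log2 difference of 0.21 against 3.50. At 8 weeks it differed from normal by 0.18. With both averaged, the change of Inhbb was 1.85 in inflamed mucosa and 1.16 at 8 weeks, and both passed (limma adjusted p = 7.90e-06 and 0.00592). On that setting the inflamed changes of Inhba (2.56) and Fst (2.05) were larger than that of Inhbb. A pseudocount of 64 gave 2.73 and 1.53. Where on the transcript each probe set lies was not used here.

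Inhba, the activin beta A chain, gave 187, 146 and 172 in normal and 361, 2218 and 1475 in inflamed mucosa. Low grade dysplasia gave 666, 350 and 151 and high grade dysplasia at 6 weeks 424, 244 and 253. The 8-week arrays gave 198, 612 and 465 and the carcinomas 211, 408 and 397. All inflamed arrays exceeded all normal arrays, but inflamed replicate 1 lay far below the other two, within the range of the dysplasias and carcinomas. The log2 change in inflamed mucosa was 2.56 ± 0.61, 5.89-fold (limma adjusted p = 0.00303), and 3.32 without replicate 1 (limma adjusted p = 1.98e-04). Later stages read between 0.77 at 6 weeks and 1.13 at 8 weeks, each ± 0.61, and did not pass (limma adjusted p from 0.225 to 0.524). The other Inhba probe set was dim, at 12.0 to 17.6 on every array, and failed the filter.

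Ltbp1, which tethers latent TGF-beta to the matrix, gave 168, 195 and 224 in normal and 564, 500 and 422 in inflamed mucosa. The low grade arrays read 241, 187 and 233 and high grade dysplasia at 6 weeks 180, 145 and 230. High grade arrays at 8 weeks read 236, 335 and 223 and the carcinomas 246, 211 and 283. The inflamed arrays stood apart from all others, and every later group overlapped normal mucosa. The log2 change in inflamed mucosa was 1.27 ± 0.19, 2.41-fold (limma adjusted p = 7.66e-05). The other 2 Ltbp1 probe sets failed the filter and differed by 0.09 and 0.16.

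Fst, follistatin, gave 86.1, 191 and 73.7 in normal and 193, 790 and 514 in inflamed mucosa. Low grade dysplasia gave 184, 123 and 164 and high grade dysplasia at 6 weeks 230, 173 and 112. The 8-week arrays gave 97.8, 179 and 245 and the carcinomas 92.1, 166 and 155. Normal replicate 2 and inflamed replicate 1 were almost level, so the groups were barely apart. The log2 change was 1.85 ± 0.46, 3.61-fold (limma adjusted p = 0.00406), and the second probe set differed by 2.25. Inflamed replicate 1 was the lowest of its group for Fst, both activin chains, all 3 TGF-beta ligands and Tgfbi, and the highest for Ltbp1.

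Bambi, a membrane protein that resembles a type I receptor but lacks its kinase, gave 106, 132 and 109 in normal and 132, 166 and 122 in inflamed mucosa. The low grade arrays read 260, 174 and 109 and high grade dysplasia at 6 weeks 279, 232 and 166. High grade arrays at 8 weeks read 131, 620 and 266 and the carcinomas 173, 298 and 145. Here the inflamed arrays overlapped the normal ones, while the 6-week and carcinoma arrays did not. No comparison of Bambi passed the test. Its largest log2 change was 1.18 ± 0.42 at 8 weeks (limma adjusted p = 0.0768), followed by 0.85 ± 0.42 at 6 weeks (limma adjusted p = 0.279).

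Smad7, which blocks receptor access of the activating Smads, gave 390, 355 and 431 in normal and 246, 327 and 244 in inflamed mucosa. Low grade dysplasia gave 387, 452 and 452 and high grade dysplasia at 6 weeks 510, 398 and 449. The 8-week arrays gave 307, 612 and 495 and the carcinomas 415, 439 and 470. The inflamed arrays lay below all normal, low grade, 6-week and carcinoma arrays, and the later groups overlapped normal mucosa. Smad7 fell by 0.51 on the log2 scale (SE 0.19), with a limma adjusted p of 0.0431, and the second probe set differed by -0.56. The call was lost without normal replicate 1, 2 or 3 (limma adjusted p = 0.0874, 0.0525 and 0.127) and without inflamed replicate 1 or 3 (0.118 and 0.134). It was also lost with no filter on dim probe sets (0.0529).

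Tgfbi, a matrix protein induced by TGF-beta, gave 1453, 1504 and 1771 in normal and 4072, 4152 and 4873 in inflamed mucosa. The low grade arrays read 5034, 3472 and 1368 and high grade dysplasia at 6 weeks 1976, 1840 and 1980. High grade arrays at 8 weeks read 2694, 1670 and 2207 and the carcinomas 1894, 1975 and 2584. Low grade dysplasia spanned the whole range of this probe set: its replicate 1 was the highest of the 18 arrays and its replicate 3 the lowest. On the other 3 probe sets low grade replicate 3 read 550, 573 and 1312, above every normal array. There low grade dysplasia differed from normal mucosa by 1.15, 0.95 and 1.15 on the log2 scale, against 0.87 on the probe set tested. The rise in inflamed mucosa was 1.46 ± 0.33, 2.75-fold (limma adjusted p = 0.00213). The other 3 probe sets differed by 1.35, 1.84 and 1.99, and 3 of the 4 carry a suffix, _s or _x, that marks probes which other transcripts may share.

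**Figure D2:**
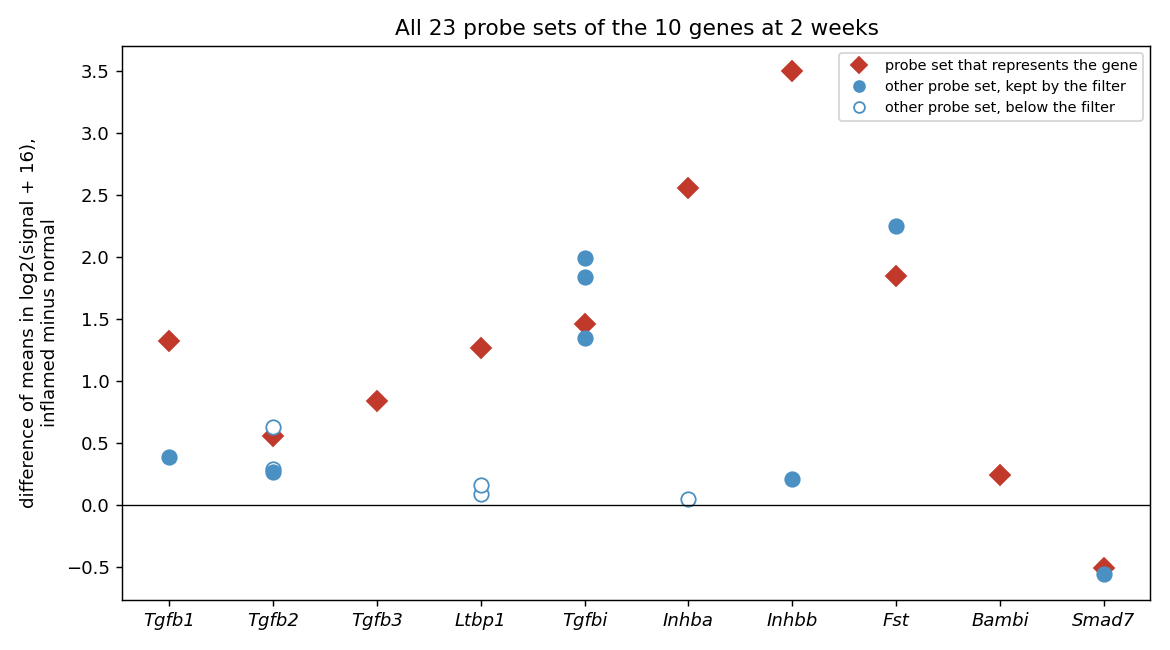
The plot shows the inflamed minus normal difference in mean log2(signal + 16) for all 23 probe sets of the 10 genes; diamonds are the probe sets that represent the genes, circles the others, and open circles those below the filter. The 4 Tgfbi probe sets lie between 1.35 and 1.99, while the 2 Inhbb probe sets lie at 3.50 and 0.21.

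The inflamed samples also differed from normal mucosa in markers of cell types, and in bulk tissue fewer cells of a type and less RNA per cell cannot be told apart. All 11 epithelial markers were lower (median log2 change -3.07), and their summed signal was 1249 to 30771 against 62953 to 67939 in normal mucosa. All 8 fibroblast markers were higher (median 1.11, summed signal 24363 to 37056 against 12390 to 13718), as were all 7 endothelial markers (median 1.34, 3699 to 5415 against 1101 to 1346). Of the macrophage and monocyte markers, 7 of 8 were higher (median 1.97, 24220 to 32725 against 10886 to 13577), and all 4 neutrophil markers tested, of 6 listed, were higher (median 4.88, 28856 to 45933 against 209 to 308). None of the 6 smooth muscle, 4 T cell or 5 B and plasma cell markers passed. No marker was listed at 0, and Itgam, S100a9, Cxcr2 and Cdh5 lay below the table's median signal in normal mucosa. Relative to the normal mean, the epithelial markers averaged -1.33, -5.22 and -2.54 on inflamed replicates 1, 2 and 3. Inflamed replicate 1 kept the most epithelial signal. It was the lowest of its group for Fst, both activin chains, all 3 TGF-beta ligands and Tgfbi, and the highest for Ltbp1. Replicate 2 kept the least, yet Inhbb, Tgfbi and Tgfb2 were highest on replicate 3. The 18S ribosomal RNA probe sets were also low on inflamed replicates 1 and 2, at 8.88 and 8.60 on the log2 scale, against 10.33 to 11.23 on the other 16 arrays. The part of these markers and of the 18S signal in the changes of the 10 genes was not tested.

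**Figure D3:**
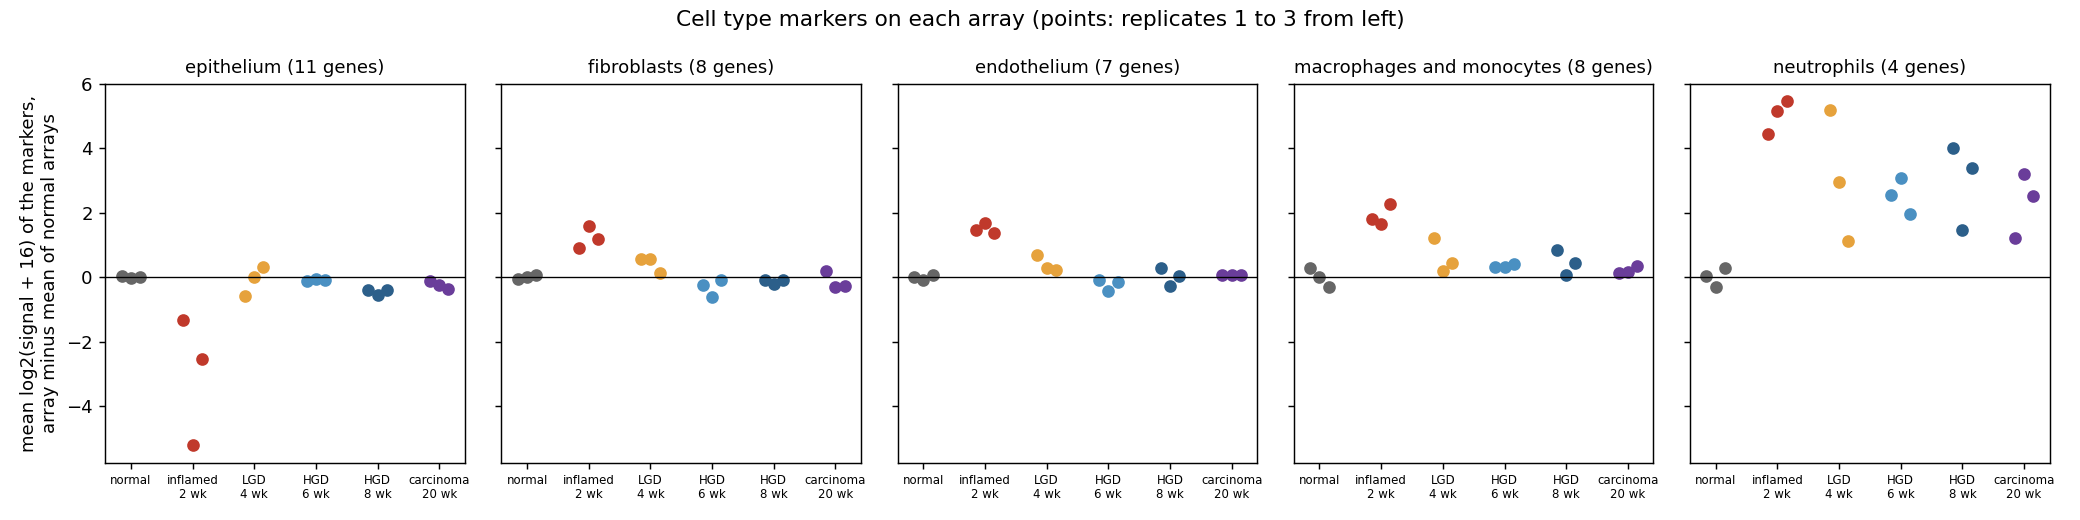
Each point is the mean log2(signal + 16) of a marker list on 1 array minus the mean of the normal arrays, for 5 lists and 6 groups, with replicates 1 to 3 from left. On inflamed arrays the epithelial list lies between -5.22 and -1.33 and the neutrophil list between 4.43 and 5.47.

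Against normal mucosa, none of the 10 genes passed in low grade dysplasia, high grade dysplasia at 6 weeks or carcinoma. Over all genes, 2.61% were higher and 3.08% lower in low grade dysplasia. The shares were 0.621% and 0.520% at 6 weeks, 4.84% and 6.42% at 8 weeks, and 0.326% and 0.575% in carcinoma. By limma at an unadjusted p under 0.05, 3 of the 10 passed in low grade dysplasia (Tgfb1, Tgfbi and Inhbb), against 24.4% of all genes. At 6 weeks and in carcinoma 1 did (Inhbb in both), against 19.6% and 18.5%. The median log2 changes of the 10 genes were 0.49, 0.32, 0.44 and 0.33 from low grade dysplasia to carcinoma, and over all genes 0.02, 0.01, 0.03 and -0.02. These comparisons share the 3 normal arrays, so they are not independent of each other.

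**Figure D4:**
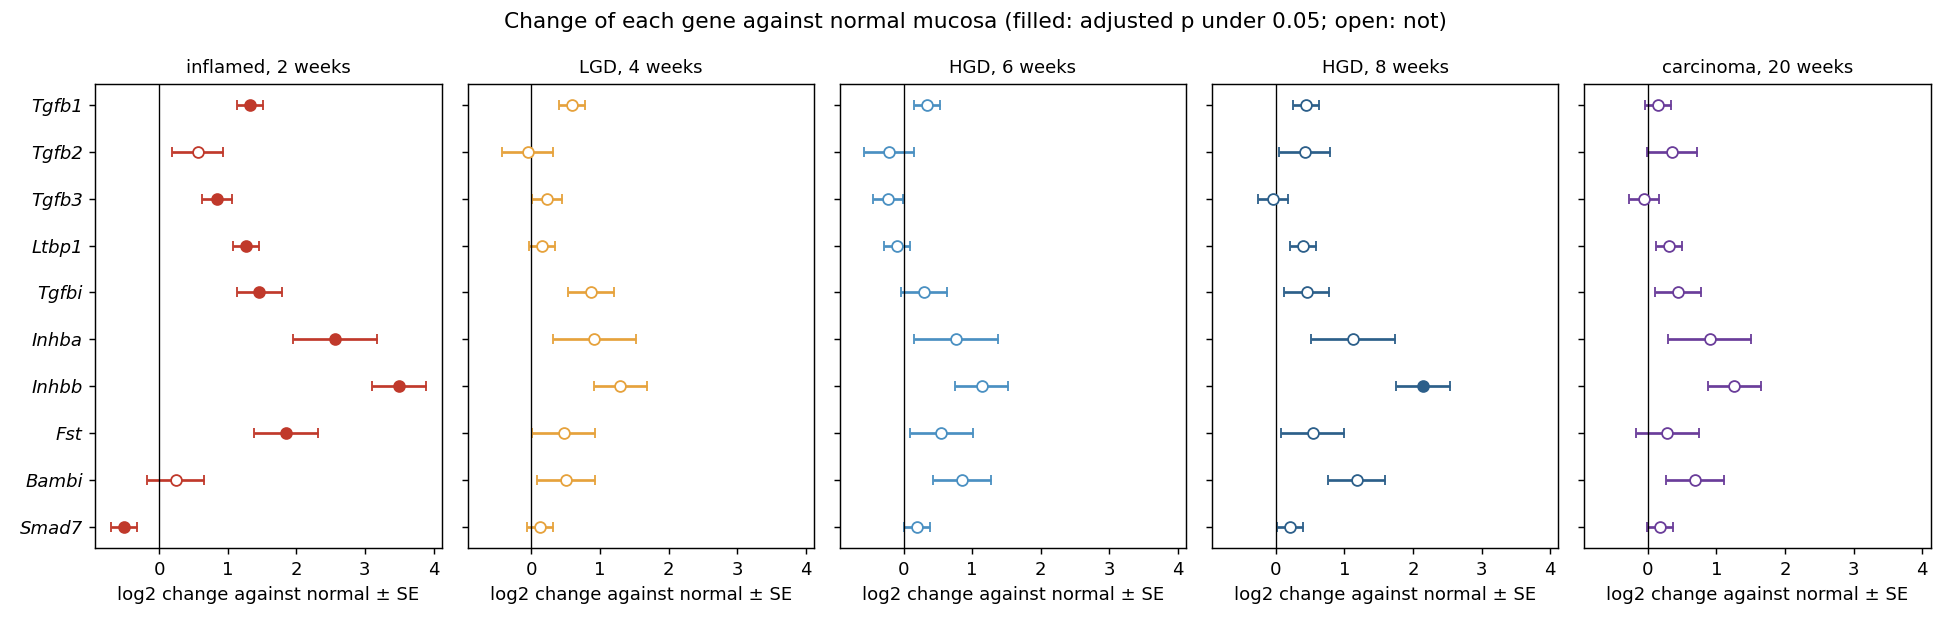
The log2 change against normal mucosa is plotted for each gene and stage, with the SE as a bar; filled points passed the limma test. In inflamed mucosa 8 of 10 points are filled, and in the 4 later stages only Inhbb at 8 weeks, at 2.15.

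Low grade dysplasia was uneven. Replicate 1 was highest and replicate 3 lowest for Tgfb1, Tgfb2, Tgfb3, Tgfbi, Inhba, Inhbb and Bambi. Neutrophil markers ran the same way, at 5.19, 2.94 and 1.13 above the normal mean on replicates 1, 2 and 3. So did endothelial markers (0.68, 0.29 and 0.21), while epithelial markers ran the opposite way (-0.57, 0.01 and 0.31). The other marker lists followed neither order. Replicate 2 stood apart in the 3'/5' log2 ratios of the RNA quality probes, at 1.63 for Gapdh and 1.51 for actin, against -0.08 to 0.16 and 0.31 to 0.69 on the other 17 arrays. Without replicate 3, Tgfbi and Inhbb passed in low grade dysplasia against normal mucosa, where 13.9% of all genes then passed in either direction. Without replicate 2 none of the 10 did, and 1.13% of all genes passed. The part of the markers and of RNA quality was not tested. At 8 weeks, replicate 2 was highest for Tgfb2, Tgfb3, Inhba, Inhbb, Bambi, Ltbp1 and Smad7 and lowest for Tgfb1 and Tgfbi, with neutrophil markers at 4.01, 1.46 and 3.39. Every other marker list but smooth muscle was also lowest on that replicate. T cell markers stood at 0.81, -1.18 and 0.10, and smooth muscle markers at -1.34, -0.86 and -1.31. In high grade dysplasia at 8 weeks 2 of 4 neutrophil markers were higher than in normal mucosa, 1 of 8 fibroblast and 2 of 6 smooth muscle markers were lower, and no marker of epithelium, endothelium or macrophages passed. Their part in the Inhbb change was not tested. Without replicate 1 at 8 weeks, Bambi and Smad7 passed beside Inhbb, and 17.1% of all genes did.

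From inflamed mucosa to low grade dysplasia, 6 of the 10 genes were lower and Smad7 was higher, against 17.0% lower and 19.3% higher over all genes. Inhbb fell by 2.19 on the log2 scale (SE 0.39, 4.57-fold, limma adjusted p = 6.92e-04) and Ltbp1 by 1.11 (SE 0.19, limma adjusted p = 4.22e-04). Tgfb1 fell by 0.73 (SE 0.19, limma adjusted p = 0.00719). The groups did not overlap for these 3 genes, a trait not counted over all genes. These 3 genes passed in each of the 17 alternatives run. Fst fell by 1.38, Tgfb3 by 0.61 and Inhba by 1.64 (limma adjusted p = 0.0284, 0.0383 and 0.0471), the last with overlapping groups, and Smad7 rose by 0.64 (limma adjusted p = 0.0185). Tgfbi, at -0.59 ± 0.33, did not pass (limma adjusted p = 0.176), but it did without low grade replicate 1, at -0.99 (limma adjusted p = 0.0167).

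These last 4 calls each rested on single arrays, by limma adjusted p. Without inflamed replicate 2 or 3, Tgfb3 was at 0.145 and 0.102, Inhba at 0.203 and 0.146, and Fst at 0.138 and 0.0910. Without low grade replicate 2 or 3, Tgfb3 was at 0.0935 and 0.103, Inhba at 0.0931 and 0.197, Fst at 0.0970 and 0.0576, and Smad7 at 0.0598 and 0.0551. Smad7 was also lost without inflamed replicate 1 or 3 (0.0574 and 0.0703). Without inflamed replicate 1 the Inhba difference was -2.40 in place of -1.64. With only the 6 arrays fitted, Inhba was at 0.168 and Fst at 0.0825; Inhba was also lost with no filter on dim probe sets (0.0576), and Fst with a pseudocount of 64 (0.0559) or kept probe sets averaged (0.0507). Over the same step 10 of 11 epithelial markers were higher, and 6 of 8 macrophage, 5 of 7 endothelial and 4 of 8 fibroblast markers were lower; their part was not tested.

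Among the lesions, none of the 10 genes passed from low grade to high grade dysplasia at 6 weeks, from 6 to 8 weeks, or from 8 weeks to carcinoma. Over all genes the shares higher and lower were likewise 0% and 0%, 0% and 0%, and 0% and 0%. At an unadjusted p under 0.05 by limma, the 10 genes gave 0, 2 and 1, against 6.99%, 3.28% and 11.0% of all genes. The 2 were Inhbb, 2.01-fold higher at 8 than at 6 weeks with no overlap, and Ltbp1, 1.40-fold higher with overlap; the adjusted p was 0.999 for both. Inhbb was then 1.85-fold lower in carcinoma than at 8 weeks, with overlap (limma adjusted p = 0.424). Without low grade replicate 3, Tgfbi passed between low grade and 6 weeks, as did 0.427% of all genes.

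In carcinoma, 7 of the 10 genes were lower than in inflamed mucosa and Smad7 was higher, against 21.2% lower and 21.2% higher over all genes. Inhbb fell by 2.24 on the log2 scale (SE 0.39, 4.72-fold, limma adjusted p = 4.28e-04). Tgfb1 fell by 1.17 and Ltbp1 by 0.96, each with an SE of 0.19, and Tgfb3 by 0.90 with an SE of 0.22 (limma adjusted p = 2.07e-04, 8.65e-04 and 0.00393). Smad7 rose by 0.68 ± 0.19 (limma adjusted p = 0.0117). These 5 genes passed in each of the 17 alternatives run. Their groups did not overlap, a trait not counted over all genes.

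The calls of Fst (-1.58), Tgfbi (-1.02) and Inhba (-1.66, with overlap) in carcinoma against inflamed mucosa passed at limma adjusted p of 0.0128, 0.0216 and 0.0394 and depended on single arrays. Fst was lost without inflamed replicate 2 or carcinoma replicate 1 (0.0708 and 0.0561). Tgfbi was lost without inflamed replicate 3 or carcinoma replicate 1 or 2 (0.0711, 0.0681 and 0.0627). Inhba was lost without inflamed replicate 2 or 3 (0.179 and 0.128) and without carcinoma replicate 1, 2 or 3 (0.136, 0.0574 and 0.0588), and it stood at -2.42 without inflamed replicate 1 and was lost with only the 6 arrays fitted (0.0869). In the same comparison all 11 epithelial markers were higher, and all 8 macrophage, 7 endothelial and 4 neutrophil markers and 7 of 8 fibroblast markers were lower; their part was not tested.

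The rest of the pathway was read from a list of 62 genes, of which 53 were tested. This list, too, was chosen with earlier results of these data known, so its counts and medians are a description. In inflamed mucosa 28 were higher and 5 lower, with a median log2 change of 0.69, against 22.6% higher and 24.3% lower and a median of 0.01 over all genes. In the latency and activation group 6 of 9 were higher and 1 lower. Thbs1, a matrix activator of latent TGF-beta, rose by 2.91 ± 0.46 (limma adjusted p = 1.36e-04) and Nrros, which holds latent TGF-beta on myeloid cells, by 1.37 ± 0.28 (limma adjusted p = 0.00112). All 5 extracellular antagonists and binding proteins were higher: Fstl1 by 1.86, the BMP antagonist Chrd by 1.43, and the TGF-beta binding proteoglycans Dcn by 1.35 and Bgn by 1.30 were the largest. Of 8 receptors 5 were higher and 1 lower. The co-receptors Tgfbr3 and Eng rose by 1.63 and 1.61, the TGF-beta type I receptor Tgfbr1 by 1.61 ± 0.14 and the endothelial receptor Acvrl1 by 1.20. With the kept probe sets averaged, Dcn stood at 1.96.

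Among the intracellular genes, none of the 5 transducers (Smad2, Smad3, Smad4, Zfyve9 and Foxh1) was higher and Smad4, the shared partner Smad, fell by 0.63 (SE 0.17, limma adjusted p = 0.00670). Of 10 intracellular inhibitors 4 were higher, among them Pmepa1, which sequesters receptor Smads, by 1.20, Ldlrad4 by 0.95 and the repressor Tgif1 by 0.89. Of 13 target genes 8 were higher and 2 lower. Col1a1, a fibrillar collagen chain, rose by 2.00 and the transcription factor Snai2 by 1.62, while Cdkn2b, a cell cycle inhibitor that TGF-beta induces in epithelium, fell by 2.95 (SE 0.31, limma adjusted p = 6.33e-06). Of 3 other ligands none passed; Lefty1 had the smallest p, at -0.69 ± 0.35 (limma adjusted p = 0.116). These changes stood beside the marker shifts given above, whose part was not tested. The Tgif1 call was lost without normal replicate 1, 2 or 3 (0.0577, 0.0549 and 0.0877) and without inflamed replicate 2 or 3 (0.0778 and 0.106, limma adjusted p).

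**Figure D5:**
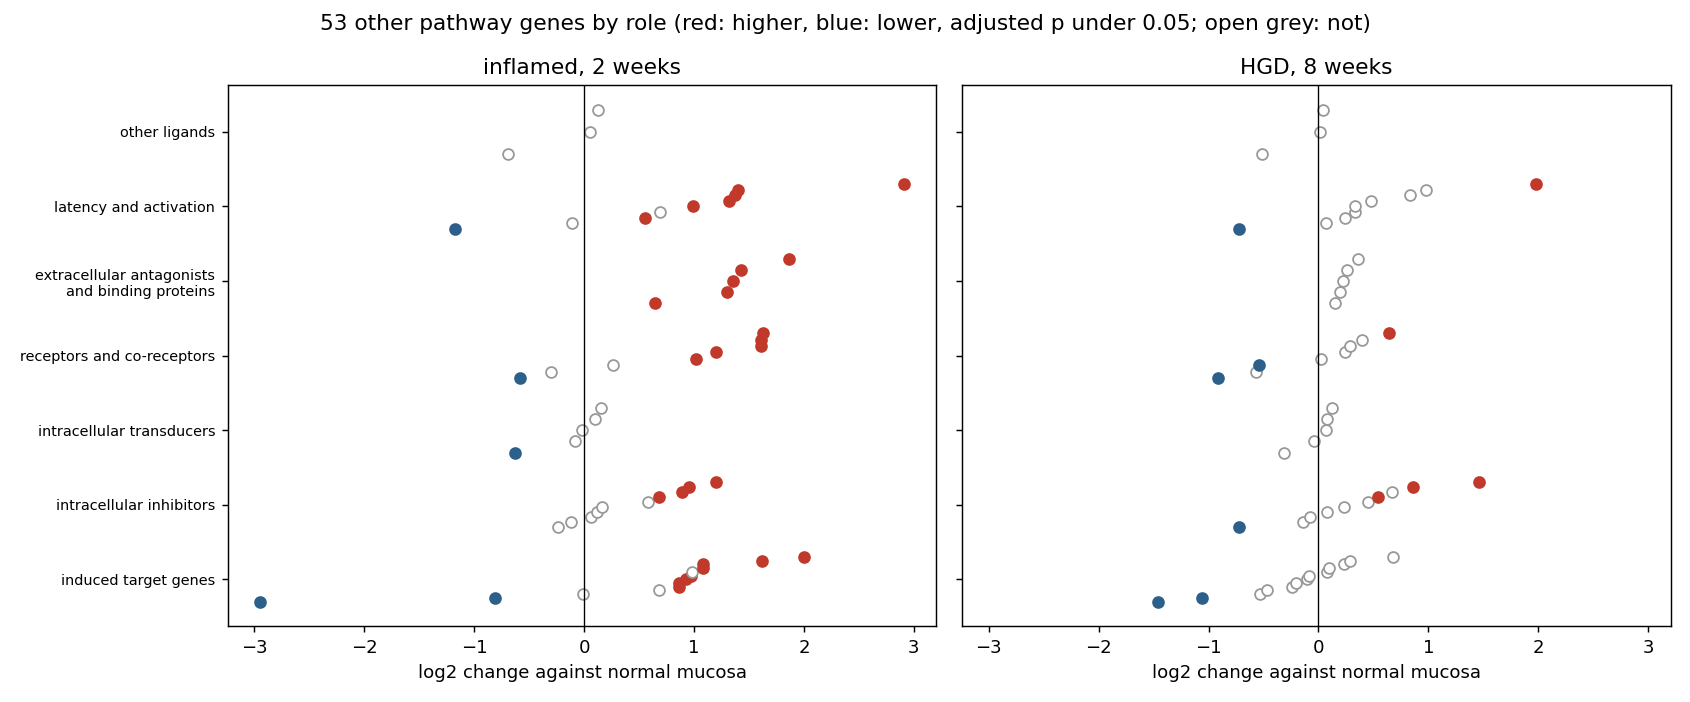
Points are the log2 changes of the 53 other pathway genes tested, by role, in inflamed mucosa and in high grade dysplasia at 8 weeks against normal mucosa; red and blue mark genes called higher and lower. In inflamed mucosa 28 points are red and 5 blue, and at 8 weeks 5 and 6.

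In the later stages fewer pathway genes passed: 5 higher and 2 lower in low grade dysplasia, 1 higher at 6 weeks, 5 higher and 6 lower at 8 weeks, and 2 higher in carcinoma. Over all genes, too, fewer passed, with 2.61% higher and 3.08% lower in low grade dysplasia, 0.621% and 0.520% at 6 weeks, 4.84% and 6.42% at 8 weeks, and 0.326% and 0.575% in carcinoma. Pmepa1 passed in all 5 comparisons with normal mucosa, with log2 changes of 1.20, 1.49, 1.28, 1.46 and 1.37 from 2 to 20 weeks, each ± 0.28 (limma adjusted p = 0.00248, 0.0125, 0.0448, 0.00875 and 0.0373). Leaving out single arrays kept it below the threshold at 2 and 8 weeks. In low grade dysplasia the call was lost (up to 0.0617) without normal replicate 2 or low grade replicate 1 or 2. At 6 weeks the call was lost whichever array was left out (0.0690 to 0.177), and in carcinoma without any of 5 of the 6 arrays, all but carcinoma replicate 1 (up to 0.186). With kept probe sets averaged it was lost at 6 weeks (0.0957) and in carcinoma (0.0675), with no filter on dim probe sets at 6 weeks (0.0507), and with only the 6 arrays fitted in low grade dysplasia (0.0900). Tgfbr1 passed in all but the 6-week comparison, at 0.55, 0.64 and 0.77 in low grade dysplasia, at 8 weeks and in carcinoma, each ± 0.14. In low grade dysplasia its call was lost without any array but low grade replicate 3 (up to 0.158), and in carcinoma without any but carcinoma replicate 1 (up to 0.127). At 8 weeks it was lost without normal replicate 2 or 3 or 8-week replicate 3 (up to 0.0614), and with only the 6 arrays fitted it was lost in low grade dysplasia (0.144).

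Other later calls were the integrin chain Itgb8, which helps to activate latent TGF-beta, at 1.40 ± 0.49 in inflamed mucosa and 1.98 ± 0.49 at 8 weeks (limma adjusted p = 0.0290 and 0.0240). Ltbp2, a relative of Ltbp1, rose by 1.75 ± 0.45 in low grade dysplasia (limma adjusted p = 0.0395), but stood at 1.10 without replicate 1 (0.127) and at 2.37 without replicate 3 (0.00193). The repressor Tgif2 rose by 0.86 at 8 weeks, where Cdkn2b fell by 1.06 and the matrix gene Postn fell by 1.46 (limma adjusted p = 0.0386, 0.0432 and 0.0110). Eng was higher by 0.52 in low grade dysplasia (limma adjusted p = 0.0471). Among the receptors, Acvr1b and Acvr2a, an activin type I and a type II receptor chosen here after their values were seen, were the ones called lower. Acvr1b fell by 0.56 in low grade dysplasia and by 0.91 at 8 weeks (SE 0.15 each, limma adjusted p = 0.0422 and 0.00538). Acvr2a fell by 0.58 in inflamed mucosa and by 0.54 at 8 weeks (SE 0.15 each, limma adjusted p = 0.00580 and 0.0377). Postn and Acvr1b at 8 weeks and Acvr2a in inflamed mucosa passed in all 17 alternatives, and the other calls named here depended on single arrays. Acvr1b in low grade dysplasia was lost in 7 of 17, among them without any array but low grade replicate 3 (up to 0.171), and Acvr2a at 8 weeks in 8 of 17, among them without any of the 6 arrays (up to 0.143). Itgb8 was lost in inflamed mucosa without any normal array or inflamed replicate 1 (up to 0.138) and with a pseudocount of 64 (0.0523). At 8 weeks Itgb8 and Tgif2 were lost without any array but 8-week replicate 1 (up to 0.0720 and 0.127), and Cdkn2b without any (up to 0.151). Ltbp2 and Eng in low grade dysplasia were lost without any array but low grade replicate 3 (up to 0.127 and 0.174). Over all settings Eng was lost in 11 of 17 and Cdkn2b in 10 of 17. The number of pathway genes called also turned on single arrays. In low grade dysplasia it was 19 without low grade replicate 3, where 13.9% of all genes passed. It was 0 without low grade replicate 1 or 2 or normal replicate 2 (0.878%, 1.13% and 0.544% of all genes) and 1 without normal replicate 1 or 3 (1.93% and 1.35%). In carcinoma it was 4 without replicate 1 (2.23%) and 0 without any other array of the comparison (0.0621% to 0.381%), and at 6 weeks 0 without any array (0.0466% to 0.986%). At 8 weeks it was 3 to 5 without any normal array or without replicate 2 or 3, where 2.59% to 5.43% of all genes passed.

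Genes elsewhere on the array followed single members across the 18 arrays, given here as a description, since the arrays share their groups. Inhbb ran closest to Mmp14, a membrane metalloprotease (Pearson r = 0.98), Ifitm2 (0.97) and Chst11 (0.96). Tgfb1 ran with Ehd1 (0.96), Arrb2 (0.96) and Timm10b (0.95), and Tgfb3 with Wbp1l, Ttl and Ilk (0.94 each). Bambi ran with Vangl2, a planar polarity protein (0.96), and with Gata5 and Prss56 (0.93 each). Tgfbi was most like the acute phase gene Hp (0.93) and Csf3r (0.92), a neutrophil receptor gene that is in the marker list above, and then Grina (0.92).

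Inhba ran with Slc39a6 (0.95), Abi2 and Eva1b (0.94 each), and Smad7 with Zbtb42, Gtf2ird1 (0.94 each) and Pcm1 (0.93). For the remaining genes the likeness was lower. Tgfb2 ran with Fxyd6, Klf11 (0.90 each) and Cdh13 (0.89), Fst with Map7d2, Serpini1 (0.89 each) and Fam216a (0.88), and Ltbp1 with Acer2, Dtx3 and Rnf150 (0.91 each).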

How the data were processed

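Expression was measured on 18 arrays, 3 in each of 6 groups. The deposited value table holds a linear intensity for each of 45101 probe sets; the submitters' processing notes name MAS5, and how arrays were scaled is not given in the sources used here. Array medians were 55.7 to 57.8. Probe sets annotated to exactly 1 gene were kept when at least 3 of 18 arrays lay above the table median of 56.6, and the kept probe set with the highest mean represented its gene. Values were log2(signal + 16). One limma 3.58.1 model (R 4.3.3) over all arrays, with eBayes trend (12 residual degrees of freedom), tested 12877 genes, with Benjamini-Hochberg adjustment per comparison and a threshold of 0.05, two-sided. The procedure was tested on simulated data with independent noise and changes planted mainly in the carcinoma arrays. Each gene had the same spread in all groups there and no array was outlying, so that test does not vouch for single calls here. Precision is limited by how few arrays there are, and the labels give no source of the replicates beyond calling them biological.

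The genes and the pathway and marker lists were chosen with earlier results of these data known. All 10 genes are named, and from each pathway role up to 4 genes, taken by size of change from those called against normal mucosa, or the gene with the smallest p where none passed; other list genes are counted. For each of the 10 genes the 3 most alike by Pearson r are named. Alternatives covered the pseudocount, filter, normalization, probe set choice, variance model, the 6 arrays of a comparison alone, a replicate block and each array left out; for pathway genes they were added after seeing the data. Same-numbered arrays gave a median r of 0.00 (45 pairs, 11 over 0.1), and differently numbered arrays 0.00 (90 pairs, 26 over 0.1). The labels do not say that numbers link animals, and numbers were not taken as pairs. Promoters are RefSeq's (GRCm38.p6); the array files name no build.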

Additional observations from a re-analysis of the deposited data

Results flagged for a closer look

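The test of the difference between stages passed for 8 of the 10 genes, in 15 comparisons with inflamed mucosa. Over all genes, 36.3% passed in low grade dysplasia against inflamed mucosa and 42.4% in carcinoma against inflamed mucosa. Because both stages are set against the same normal arrays, the difference between their effects equals the direct comparison of the stages. In log2 units, low grade dysplasia differed from inflamed mucosa by -0.73 for Tgfb1, -0.61 for Tgfb3, -1.64 for Inhba, -2.19 for Inhbb, -1.38 for Fst, -1.11 for Ltbp1 and 0.64 for Smad7. Carcinoma differed from inflamed mucosa by -1.17 for Tgfb1, -0.90 for Tgfb3, -1.02 for Tgfbi, -1.66 for Inhba, -2.24 for Inhbb, -1.58 for Fst, -0.96 for Ltbp1 and 0.68 for Smad7. Groups of 3 arrays are too small for the check for outlying samples, so none was made.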

How the results depend on the processing

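The 7 rises in inflamed mucosa and the rise of Inhbb at 8 weeks passed in all 17 alternatives run for each. Fitting only the 6 arrays of a comparison called 3 of the 10 genes at 6 weeks (Inhba, Inhbb and Bambi, with 12.7% of all genes) and 1 in carcinoma (Inhbb, with 4.11%), where the fit over all arrays called 0; the cause was not tested. It also called Tgfb2 in inflamed mucosa. That setting called 0 other pathway genes in low grade dysplasia (0.388% of all genes, against 5.69% with all arrays), 11 at 6 weeks (12.7%, against 1.14%), 6 at 8 weeks (5.91%, against 11.3%) and 5 in carcinoma (4.11%, against 0.901%). With no filter on dim probe sets these were 4 in low grade dysplasia (3.06% of all genes) and 0 at 6 weeks (0.588%).

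With the replicate number as a block, 8 of the 10 genes were called in inflamed mucosa (45.4% of all genes) and 1 at 8 weeks (8.61%). Against inflamed mucosa, 5 were called in low grade dysplasia (34.9%) and 8 in carcinoma (40.9%). The F test called 7, where the share of all genes was not counted. Other pathway genes called were 3 in low grade dysplasia (4.26% of all genes), 0 at 6 weeks (0.241%) and 0 in carcinoma (0.342%). The labels do not say that the numbers pair the samples.

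Leaving out 1 array at a time moved the number of the 10 genes called and the share of all genes called. The number ranged from 0 to 2 in low grade dysplasia (0.544% to 13.9% of all genes) and 1 to 3 at 8 weeks (2.59% to 17.1%). Against inflamed mucosa it was 3 to 8 in low grade dysplasia (27.7% to 37.6%) and 5 to 8 in carcinoma (33.7% to 40.7%). Between low grade dysplasia and 6 weeks it was 0 to 1 (0% to 0.427%). The F test gave 3 to 9, where the share of all genes was not counted. Other pathway genes called ranged from 0 to 19 in low grade dysplasia and 3 to 13 at 8 weeks. They ranged from 0 to 0 at 6 weeks (0.0466% to 0.986% of all genes) and 0 to 4 in carcinoma (0.0621% to 2.23%). Signs turned only for changes that were not called. Against normal mucosa, Tgfb2 in low grade dysplasia was 0.04 with kept probe sets averaged and ranged from -0.22 to 0.21 with 1 array left out. It ranged from -0.36 to 0.00 at 6 weeks and from -0.17 to 0.83 at 8 weeks. Tgfb3 ranged from -0.23 to 0.11 at 8 weeks and from -0.23 to 0.04 in carcinoma, Ltbp1 from -0.24 to 0.06 at 6 weeks and Smad7 from 0.00 to 0.48 at 8 weeks. Bambi ranged from -0.01 to 0.56 between inflamed mucosa and low grade dysplasia.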
